A study of Mus musculus with 6 samples.

Results

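The transcripts of the condensin subunits were followed through 6 RNA-seq libraries of V6.5 murine ESCs. Condensin I and condensin II share the SMC subunits SMC2 and SMC4, encoded by Smc2 and Smc4, and each adds 3 subunits of its own. These are CAPH, CAPD2 and CAPG in condensin I (Ncaph, Ncapd2 and Ncapg) and CAPH2, CAPD3 and CAPG2 in condensin II (Ncaph2, Ncapd3 and Ncapg2). The 8 genes were found by RefSeq accession and gene symbol, and for each the transcript row with the most counts was used. They are 8 of 21082 genes and 9 of 26073 RefSeq rows, because Ncaph2 is listed in 2 rows whose counts are nearly equal. Each library came from V6.5 cells, a line of C57BL/6-129 background, infected with a lentiviral shRNA and selected with puromycin at 0.5 µg/ml for 48 hours and then 1 µg/ml for 48 hours by the labels, where the paper's methods give another dose. The control shRNA was directed against GFP (1 library), and the others against Smc1 (1 library, called SMC1), CapH2 (2 libraries, CAPH2 R1 and CAPH2 R2) and Smc2 (2 libraries, SMC2 R1 and SMC2 R2). Both libraries of a target are different hairpins, each sequenced once. ERCC synthetic RNAs (1.42 µl of a dilution) were spiked into the RNA of 652000 cells for each library. All groups therefore share the lentiviral infection and the selection, and the labels name no library from uninfected cells.

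Condensins are ring-shaped complexes that compact and individualize chromosomes. The pair of SMC proteins forms a hinged V with an ATPase head at the end of each arm, and a kleisin subunit (CAPH or CAPH2) joins the heads. The other subunits of each complex are HEAT-repeat proteins (CAPD2 and CAPG, or CAPD3 and CAPG2) that bind the kleisin and DNA. Condensin I reaches chromosomes after the nuclear envelope breaks down in mitosis, whereas condensin II is nuclear in interphase as well. A hairpin against Smc2 is thus directed at a subunit of both complexes, and a hairpin against CapH2 at the kleisin of condensin II alone. A transcript level does not measure the protein or the assembled complex.

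The 2 targeted genes lie at chromosome 4 from 52452121 to 52501131 (Smc2, NM_008017, plus strand) and at chromosome 15 from 89186153 to 89203259 (Ncaph2, NM_001115132, plus strand) in the mm9 build of the files. The others lie on chromosomes 3 (Smc4, NM_133786, plus strand), 2 (Ncaph, NM_144818, minus strand), 6 (Ncapd2, NM_146171, minus strand), 5 (Ncapg, NM_019438, plus strand), 9 (Ncapd3, NM_178113, plus strand) and 12 (Ncapg2, NM_133762, plus strand). No pair of members is on the same chromosome. All values are sums over the annotated exons of the row, from 2624 bases for Ncaph to 6604 bases for Ncapg2.

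RefSeq promoters (GRCm38.p6, 250 bases before to 50 bases after the annotated start) were found for 7 of the 8 genes, all but Smc4. They were searched on both strands for motifs of cell cycle genes. These were CCAAT, the letters read by NF-Y, the cell cycle homology region in its forms TTTGAA and TTCGAA, and the E2F-like letters TTCCCGC and TTGGCGC. No matches in the 7 genes overlapped one another. CCAAT was found for 3 of the 7 genes (37.4% of 32851 promoters in the table), TTTGAA for 5 (17.9%), TTCGAA for 1 (1.56%), TTCCCGC for 2 (4.6%) and TTGGCGC for 3 (2.45%). A match of these letters is a description of the sequence and not a binding site. Stretches that end at the base before the annotated start are shown for the 2 knockdown targets and for Ncapg and Ncapg2, the related HEAT subunits of condensin I and condensin II, with the motifs on either strand in capitals. For Ncaph2 the stretch is shorter because the gene Lmf2 starts nearby in the opposite direction.
Smc2, chr4:52439071-52439220, plus strand: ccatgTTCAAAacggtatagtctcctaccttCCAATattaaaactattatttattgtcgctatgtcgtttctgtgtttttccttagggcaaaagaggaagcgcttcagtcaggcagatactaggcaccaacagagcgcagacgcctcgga
Ncaph2, chr15:89355659-89355718, plus strand: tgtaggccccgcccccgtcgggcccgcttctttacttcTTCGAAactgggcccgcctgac
Ncapg, chr5:45669775-45669924, plus strand: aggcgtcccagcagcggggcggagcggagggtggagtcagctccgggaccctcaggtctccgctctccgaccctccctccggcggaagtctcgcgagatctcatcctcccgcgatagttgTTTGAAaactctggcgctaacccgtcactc
Ncapg2, chr12:116405286-116405435, plus strand: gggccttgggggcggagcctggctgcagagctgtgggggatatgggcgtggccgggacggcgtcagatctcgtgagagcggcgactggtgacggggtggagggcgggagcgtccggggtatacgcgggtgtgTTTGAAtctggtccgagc
Smc2 holds CCAAT with its first base 119 bases before the start and TTTGAA, on the opposite strand, 145 bases before it. The form TTCGAA occurs in Ncaph2 alone among the 7, 22 bases before the start. Ncapg and Ncapg2 hold TTTGAA at 30 and 18 bases before the start. Both also hold TTCCCGC on the opposite strand, at 31 bases after the start in Ncapg and at the start itself and 249 bases before it in Ncapg2, outside the letters printed.

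The reads behind the RPKM values numbered 18823243 to 23324532 per library. The 9 ESC markers were detected in all libraries (summed RPKM 2101 to 3844, lowest with SMC1). With SMC1, 7 of the 9 were at most 80.0% of GFP (29.3% of all rows were), and their median log2 change over the 9 was -1.31. The 10 fibroblast markers, for the feeder cells, off which the line was passaged onto gelatin before expression was measured, summed to an RPKM of 48.7 (GFP) to 101 (SMC1), and at most 1 of them was at 0 in a library. All comparisons with GFP share its single library. That library had the highest or the lowest RPKM of the 6 in 59% of the 15538 rows whose GFP value reached 1 RPKM. The same held in 7 of the 8 condensin genes. No such share was taken for the other libraries, so it does not show that GFP differs more than they do. Against GFP, rows with AT-rich exons were higher and rows with GC-rich exons lower in every knockdown library. The Spearman correlation over rows of the log2 change with the GC content of the transcript's exons, known for 13679 rows (88%), was -0.300 with SMC1, -0.476 and -0.548 with CAPH2 and -0.510 and -0.519 with SMC2. Rows share a library and are not independent, so these correlations are a description. The ERCC counts, per library read, differed from GFP by -0.86 (log2) with SMC1, -0.63 and 0.047 with CAPH2 and -0.64 and -0.57 with SMC2. Scaling to the ERCC RNAs therefore raises the log2 change of every gene by 0.57 to 0.86 in 4 of the 5 libraries.

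In the GFP library Ncapd2 was the most abundant of the condensin transcripts per length, with an RPKM of 134. Ncaph2 followed at 80.2, and Ncaph (51.6), Smc4 (47.4), Ncapg (33.2), Smc2 (26.6) and Ncapd3 (18.9) were lower. Ncapg2 was the lowest at 10.2, so the members spanned a 13.2-fold range. Ncapd2 was the highest and Ncapg2 the lowest in all 6 libraries. The place of Ncaph2 moved most, from next to Ncapd2 in GFP and in both SMC2 libraries to a place below Smc4 with SMC1, below Ncapd3 with CAPH2 R1 and between Smc2 and Ncapd3 with CAPH2 R2. GFP and SMC1 have 1 library each, so the spread between samples is known only for CAPH2 and SMC2. With CAPH2, Smc2 at 41.4 ± 1.23 RPKM and Ncapg at 42.4 ± 2.05 (SD, n = 2 hairpins) did not differ beyond that spread, nor did Ncaph2 at 22.4 ± 7.81 and Ncapd3 at 21.9 ± 1.26. With SMC2, Ncapd3 at 21.4 ± 0.075 stood above Smc2 at 19.0 ± 0.233, the reverse of the GFP order. The RPKM of each member by library shows these positions.

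**Figure D1:**
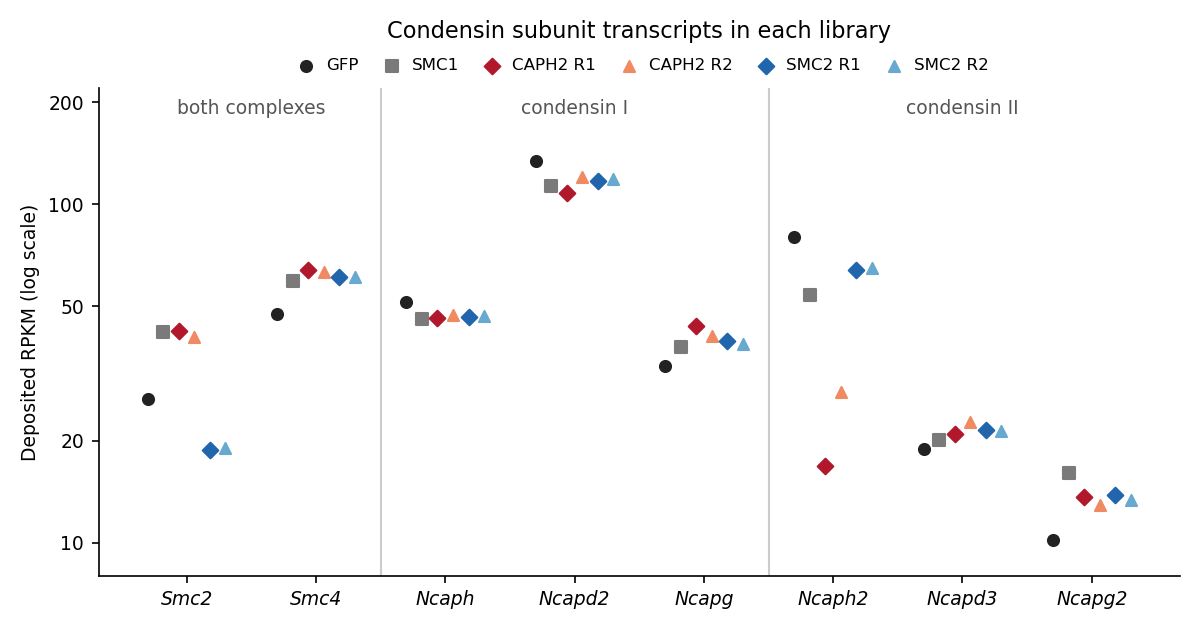
Deposited RPKM (log axis) of the 8 condensin transcripts in the 6 libraries, 1 point per library, grouped by complex. Ncapd2 was between 108 and 134 and Ncaph2 between 16.9 and 80.2, while Smc2 was lowest in the 2 SMC2 libraries (18.8 and 19.1).

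Ncaph2, the kleisin of condensin II and the target of the CAPH2 hairpins, had an RPKM of 80.2 (5724 counts) with GFP, 54.0 with SMC1, 16.9 and 27.9 with CAPH2 R1 and R2, and 63.9 and 64.9 with SMC2 R1 and R2. The CAPH2 libraries were the lowest of the 6 and did not overlap with the rest. The level left was 34.8% of GFP with CAPH2 R2 (95% exact binomial limits 33.0 to 36.7), and CAPH2 R1 left 21.0% (19.8 to 22.3). CAPH2 R2 left 1.65 times the level of CAPH2 R1 (1.54 to 1.78). These intervals cover counting error only. Ncaph2 was also below GFP where it was not the target, at 67.3% with SMC1 (64.5 to 70.2) and at 79.6% and 80.9% with SMC2. Scaled to the ERCC RNAs, these 3 libraries lay above GFP instead, by 0.29, 0.31 and 0.26 on the log2 scale, while the CAPH2 libraries stayed below it at -1.62 and -1.57.

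Smc2, the ATPase shared by both complexes and the target of the SMC2 hairpins, had an RPKM of 26.6 (3049 counts) with GFP, 41.9 with SMC1, 42.3 and 40.6 with CAPH2, and 18.8 and 19.1 with SMC2. The SMC2 libraries were the lowest, GFP lay between, and the SMC1 and CAPH2 libraries were the highest. The level left with the SMC2 hairpins was 70.7% of GFP (66.9 to 74.6) and 71.9% (68.0 to 76.0), and the hairpins did not differ beyond counting error (ratio 1.02, 0.958 to 1.08). Set against the CAPH2 libraries in place of GFP, Smc2 with SMC2 was at 46.1% by edgeR. That share also holds the higher level of Smc2 in the CAPH2 libraries, so it is not the depth of the knockdown alone. In the libraries in which it was not targeted Smc2 was at 157% of GFP with SMC1 (150.2 to 165), 159% with CAPH2 R1 (152 to 166) and 152% with CAPH2 R2 (145 to 159.7). Scaled to the ERCC RNAs, Smc2 with SMC2 was 0.14 and 0.091 above GFP on the log2 scale, so the direction of this knockdown against GFP rests on scaling to library reads.

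Smc4, the SMC partner of SMC2 in both complexes, had an RPKM of 47.4 with GFP, 59.2 with SMC1, 63.8 and 63.0 with CAPH2, and 60.9 in both SMC2 libraries. GFP was the lowest of the 6, and the other libraries were at 125% to 135% of it. Smc4 thus lay above GFP both in the libraries with less Smc2 and in those with more, with a mean log2 change of 0.36 with SMC2 and 0.42 ± 0.014 (SD, n = 2) with CAPH2.

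The kleisin of condensin I, Ncaph, had an RPKM of 51.6 with GFP and 45.7 to 47.1 in the other 5 libraries (88.6% to 91.3% of GFP). It showed the narrowest range of the 8 genes among the knockdown libraries, and it was no higher where the kleisin of condensin II was targeted. Ncapd2, the HEAT subunit with the most counts (13012 in GFP), had an RPKM of 134 with GFP, 113 with SMC1, 108 and 120.4 with CAPH2, and 117 and 119 with SMC2. The CAPH2 hairpins differed beyond counting error (ratio 1.11, 1.09 to 1.15), and the lower of them gave 80.6% of GFP. The other HEAT subunit of condensin I, Ncapg, had an RPKM of 33.2 with GFP, 37.8 with SMC1, 43.8 and 40.9 with CAPH2, and 39.5 and 38.7 with SMC2. GFP was its lowest library, unlike for Ncaph and Ncapd2, for which GFP was the highest. Scaled to the ERCC RNAs, Ncaph and Ncapd2 lay above GFP in all knockdown libraries but CAPH2 R2, in which they were at -0.18 and -0.20 (log2).

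Of the HEAT subunits of condensin II, Ncapd3 had an RPKM of 18.9 with GFP, 20.1 with SMC1, 21.0 and 22.7 with CAPH2, and 21.5 and 21.4 with SMC2. Ncapg2 had an RPKM of 10.2 (1446 counts) with GFP, 16.1 with SMC1, 13.7 and 12.9 with CAPH2, and 13.8 and 13.4 with SMC2. GFP was the lowest library for both, and the difference was larger for Ncapg2 (127% to 159% of GFP) than for Ncapd3 (106% to 120.2%). Neither partner transcript was lower with the CAPH2 hairpins, which target the kleisin these proteins bind.

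**Figure D2:**
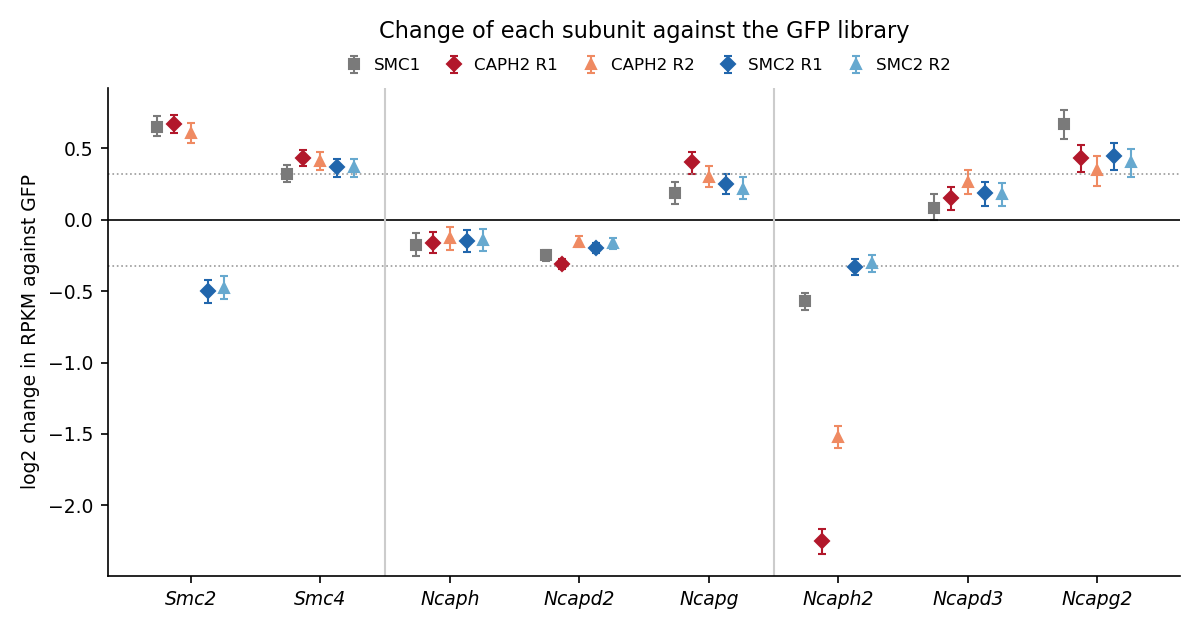
Log2 change in RPKM against the single GFP library for each gene and knockdown library, with 95% exact binomial intervals that cover counting error only; dotted lines mark 125% and 80.0% of GFP. Ncaph2 is at -2.25 and -1.52 with CAPH2, Smc2 at -0.50 and -0.48 with SMC2, and Smc4, Ncapg, Ncapd3 and Ncapg2 are above 0 in all 5 libraries.

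A level of at least 125% or at most 80.0% of GFP, in both hairpins where there were 2, was used to count members by RPKM, and SMC1 against GFP, with 1 library on each side, was not tested. With SMC1, Smc2 and Ncapg2 were past this limit upward (26.7% of 15538 rows were) and Ncaph2 downward (29.3%), so these counts are near those of all rows. Smc4 with SMC1 rounds to the upper limit but lay under it, and Ncaph2 with SMC2 was past the lower limit in 1 hairpin (79.6%) and not in the other (80.9%). With CAPH2, Smc2, Smc4 and Ncapg2 were past it upward (7.94% of rows) and Ncaph2 downward (8.5%). With SMC2, Smc4 and Ncapg2 were past it upward (7.61%) and Smc2 downward (9.72%). At a limit of 1.5-fold the members left with SMC1 were Smc2 and Ncapg2 upward (15.5% of rows were). With CAPH2 they were Smc2 upward (1.52%) and Ncaph2 downward (2.09%). No member was left with SMC2 (1.44% of rows upward and 2.16% downward). The median log2 change of the 8 genes was 0.14 with SMC1, 0.27 and 0.28 with CAPH2, and 0.016 and 0.017 with SMC2, beside -0.026 to -0.0069 for all rows.

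Ratios between subunits within a library do not depend on how libraries are scaled to each other. The ratio of Smc2 to Smc4 RPKM was 0.562 with GFP, 0.708 with SMC1, 0.663 and 0.644 with CAPH2, and 0.309 and 0.314 with SMC2. The SMC2 libraries thus stood below the others, and their counting intervals (0.294 to 0.324 and 0.298 to 0.331) did not reach that of GFP (0.536 to 0.589). The ratio of the kleisins, Ncaph to Ncaph2, was 0.643 with GFP, 0.847 with SMC1, 2.74 and 1.69 with CAPH2, and 0.728 and 0.721 with SMC2. The condensin I kleisin transcript exceeded that of condensin II in the CAPH2 libraries and in no other. Ncaph2 was 4.24 times as abundant as Ncapd3 with GFP, 2.69 times with SMC1, 0.805 and 1.23 times with CAPH2, and 2.97 and 3.04 times with SMC2. The ratio of Ncaph2 to Ncapg2 was 7.89 with GFP, 1.23 and 2.16 with CAPH2, and between 3.34 and 4.83 in the other libraries. The kleisin transcript of condensin II was therefore in excess over those of its HEAT partners in all libraries but CAPH2 R1, in which it fell below Ncapd3.

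The HEAT subunits varied less. Ncapd2 to Ncapd3 was 7.08 with GFP and 5.15 to 5.61 elsewhere, and Ncapg to Ncapg2 was 3.27 with GFP, 2.34 with SMC1 and 2.86 to 3.19 with the condensin hairpins. Summed over the subunits that are not SMC proteins, condensin II held 33.3% of the RPKM with GFP, 31.5% with SMC1, 20.7% and 23.4% with CAPH2, and 32.9% and 32.7% with SMC2. Its share was lower with CAPH2 only through Ncaph2, since Ncapd3 and Ncapg2 were above GFP there.

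**Figure D3:**
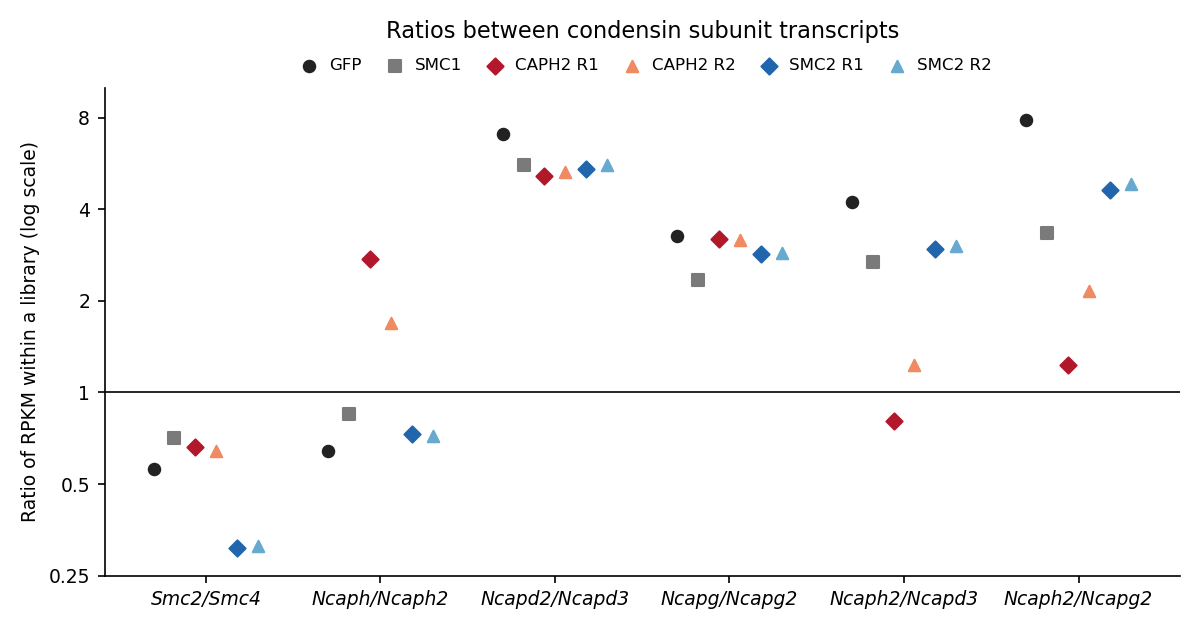
Ratio of the RPKM of subunit pairs within each library (log axis, 1 point per library). Smc2/Smc4 is lowest with SMC2 (0.309 and 0.314), and Ncaph/Ncaph2 exceeds 1 with the CAPH2 hairpins alone (2.74 and 1.69).

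SMC2 against CAPH2 is the comparison with 2 libraries on each side, and it asks how a hairpin against the shared subunit differs from one against condensin II. In edgeR's quasi-likelihood test over 18245 rows, 1 row (0.00548%) passed an adjusted p of 0.05, and it was Smc2, which was lower with SMC2 by a log2 difference of -1.12 ± 0.0652 (SE, adjusted p = 0.000329). Ncaph2 was higher with SMC2 by 1.54 ± 0.177, and at an adjusted p of 0.0511 it did not pass. Its difference was 1.21 without CAPH2 R1 and 1.94 without CAPH2 R2, and 1.55 and 1.53 without SMC2 R1 and SMC2 R2. A fit without a CAPH2 hairpin no longer holds the spread between the 2, so it cannot decide this call. The spread of Ncaph2 between the CAPH2 hairpins was the widest of the 8 genes. The other 6 members differed by -0.11 (Ncapg) to 0.058 (Ncapd2), each with an adjusted p that rounds to 1. Thus Smc4, Ncaph, Ncapd2, Ncapg, Ncapd3 and Ncapg2 showed no difference between the targets beyond the spread of the hairpins, with standard errors of 0.0598 to 0.0721. Over all rows 565 had an unadjusted p under 0.05, and DESeq2 called 5 rows. Leaving out CAPH2 R2 raised the calls to 404 and leaving out CAPH2 R1 to 29.

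CAPH2 and SMC2 were also tested against GFP over 18463 rows, in a fit of all 6 libraries in which the lone GFP library is assumed to vary like the hairpin pairs. These p-values cannot tell the effect of a hairpin apart from anything particular to the lone GFP library. All calls of higher members below were lost with the GC offset described further on. With CAPH2, 4 members passed as higher than GFP (4.89% of rows did). These were Smc2 by 0.64 ± 0.0807 (adjusted p = 0.0155), Smc4 by 0.43 ± 0.0756 (0.0214), Ncapg2 by 0.39 ± 0.0906 (0.0336) and Ncapg by 0.36 ± 0.0844 (0.0361). Ncaph2 fell, with a log2 change of -1.84 ± 0.203 and an adjusted p of 0.0155 (3.22% of rows were called lower). Ncaph (-0.14), Ncapd2 (-0.23) and Ncapd3 (0.21) did not pass. Without CAPH2 R2, Ncapd2 was at -0.33, and by DESeq2 Ncapg2 did not pass (0.37, adjusted p = 0.0513). With SMC2, Smc4 rose by 0.38 ± 0.0754 (adjusted p = 0.0237) and Ncapg2 by 0.44 ± 0.0906 (0.0268), where 4.57% of rows rose. Smc2 fell, with a log2 change of -0.47 ± 0.0787 and an adjusted p of 0.0146 (2.58% of rows were called lower). Ncaph2 with SMC2 was at -0.30 ± 0.204 and did not pass (adjusted p = 0.38, and -0.18 with the GC offset), nor did Ncapg (0.25), Ncapd3 (0.20), Ncapd2 (-0.17) and Ncaph (-0.13). Without CAPH2 R1 or CAPH2 R2, Ncaph2 with SMC2 was at -0.30 and -0.32, and Ncapg was at 0.25 without CAPH2 R1. Such fits no longer hold the spread between the CAPH2 hairpins, so they cannot decide these calls. The error of Ncaph2 in the main fit draws on that spread (log2 SD 0.51), which was 0.016 between the SMC2 hairpins. That Ncaph2 did not pass with SMC2 therefore does not show that it was unchanged there. Both comparisons share the GFP library, so a gene that is unusual in it appears in both. The calls of Smc4 and Ncapg2 with SMC2 were lost when either SMC2 hairpin was left out (adjusted p = 0.0624 to 0.0801), at log2 changes of 0.36 in both cases for Smc4 and of 0.40 and 0.44 for Ncapg2.

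The members that rose are those with the most AT-rich exons. Smc2 (39.3% GC), Ncapg (39.8%), Smc4 (40.2%) and Ncapg2 (41.6%) lie in the lowest of 5 equal bins of the rows by GC content. The median change of that bin was 0.22 and 0.19 with the CAPH2 hairpins and 0.19 with each SMC2 hairpin. Ncapd3 (46.8%) and Ncaph (48.3%) lie in bin 2, and Ncapd2 (53.7%) and Ncaph2 (55.7%) in bin 4, whose median change was -0.14 to -0.12 in these 4 libraries. Relative to the median of its own bin, Smc4 was 0.21 and 0.22 higher with CAPH2 and 0.17 higher with each SMC2 hairpin, and Ncapg was 0.18 and 0.11 higher with CAPH2 and 0.061 and 0.024 higher with SMC2. Ncapg2 was 0.21 and 0.15 higher with CAPH2 and 0.25 and 0.20 higher with SMC2, and Smc2 was 0.44 and 0.41 higher with CAPH2.

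**Figure D4:**
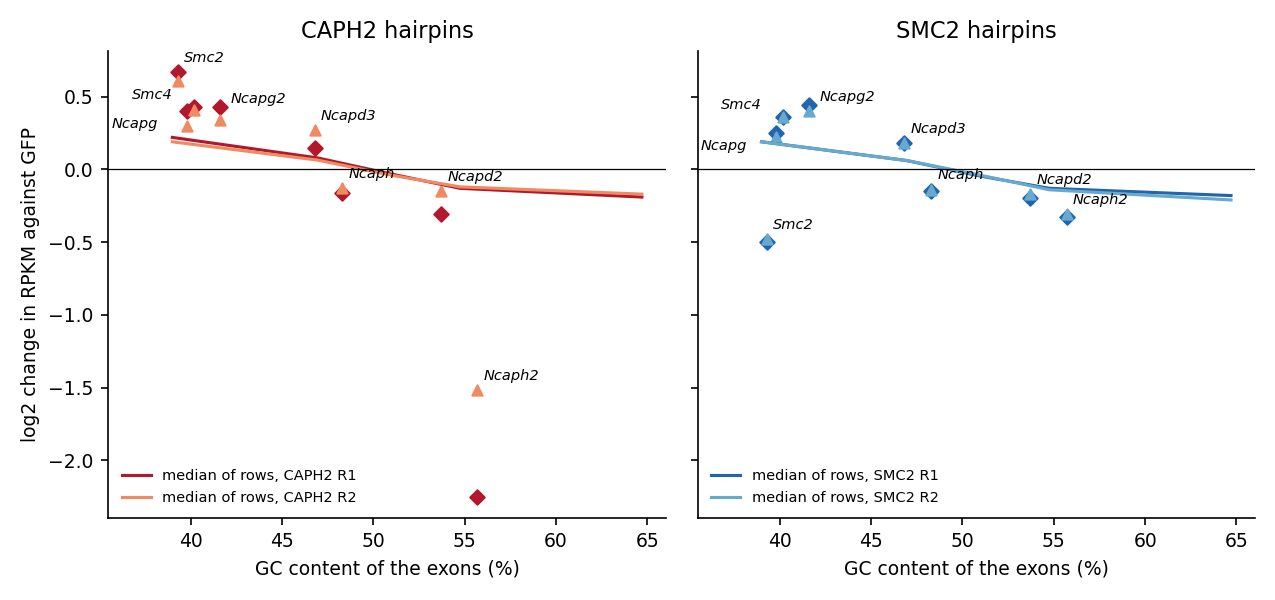
Log2 change in RPKM against GFP plotted against exon GC content for the 8 members (points, 1 per hairpin) and the median of all rows in 5 bins of GC content (lines). Smc4, Ncapg and Ncapg2, at 39.8% to 41.6% GC, lie near or above the upper end of the lines, while Ncaph2 with CAPH2 and Smc2 with SMC2 lie far below them.

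A fit with an offset for GC content in each library, chosen after seeing the data, was therefore set beside the first. It called 96 of 16250 rows with CAPH2 and 81 with SMC2, where the same rows without the offset gave 1452 and 1233. Among the members it called the 2 targets alone against GFP. Ncaph2 with CAPH2 was at -1.72 ± 0.193 (adjusted p = 0.0139), and Smc2 with SMC2 was at -0.78 ± 0.0774 (0.0122), which is 58.3% of GFP. The calls of Smc4 (0.12 with CAPH2 and 0.074 with SMC2), Ncapg2 (0.15 and 0.19) and Ncapg (0.052 with CAPH2) were lost, and Ncapg with SMC2 turned to -0.054. Smc2 with CAPH2 was at 0.34 ± 0.079 and did not pass (adjusted p = 0.0688). In SMC2 against CAPH2 the offset left Smc2 at -1.11 (adjusted p = 0.000134) and Ncaph2 at 1.54, which now passed (0.0228). Whether the change with GC content arose in the cells or in library preparation was not tested.

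**Figure D5:**
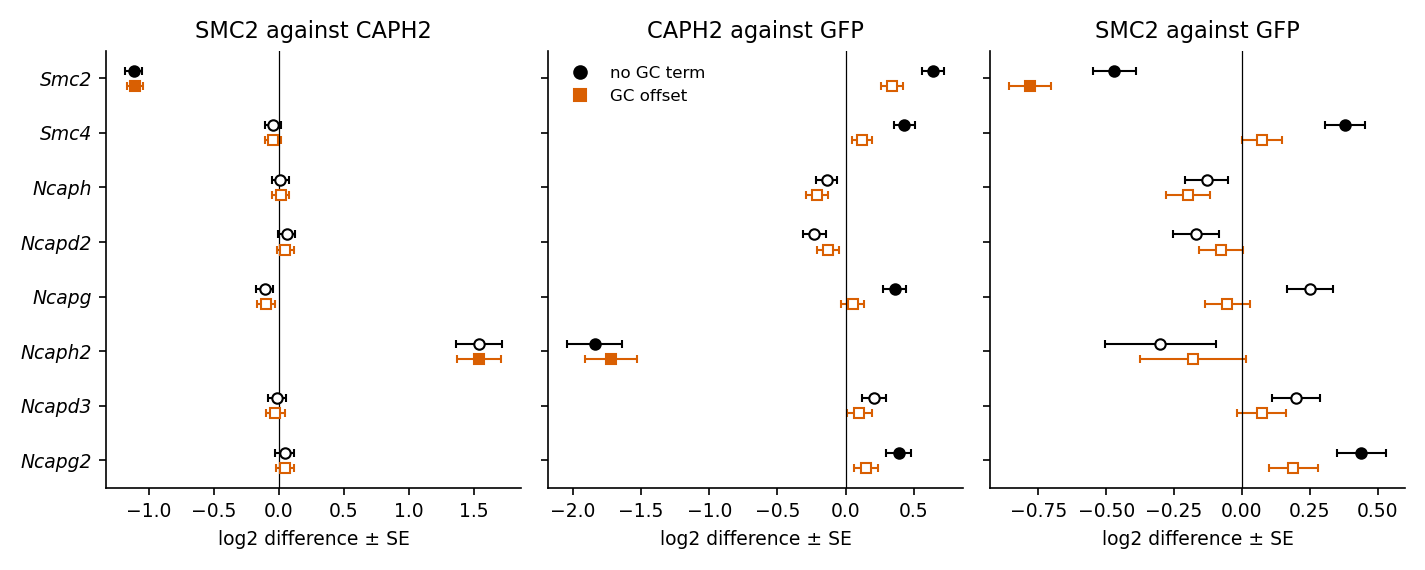
Log2 difference ± SE of the 8 members in 3 edgeR tests without (circles) and with (squares) an offset for GC content; filled symbols passed an adjusted p of 0.05. In SMC2 against CAPH2 both fits give nearly the same values (Smc2 -1.12 and -1.11), whereas against GFP the offset moves Smc4, Ncapg and Ncapg2 toward 0.

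Pairs of subunits with nearly equal GC content were compared within each library. Against Smc4, Smc2 with the SMC2 hairpins was at 55.0% and 55.9% of its GFP ratio, and against Ncapg at 59.4% and 61.8%. Both shares are lower than the 70.7% and 71.9% obtained from RPKM against GFP. This follows from the division, since Smc4 and Ncapg were themselves above GFP in the SMC2 libraries, and does not separately show a deeper knockdown. With CAPH2, Smc2 was at 118% and 115% of its GFP ratio to Smc4 and at 120.4% and 124% of its ratio to Ncapg. Against Ncapd2, Ncaph2 was at 26.1% and 38.7% of its GFP ratio with CAPH2, 80.0% with SMC1 and 91.4% and 90.7% with SMC2. Ncaph against Ncapd3, neither of them a target, was at 75.9% to 83.5% of its GFP ratio in all 5 libraries. Smc4 against Ncapg stayed at 102% to 111% of the GFP ratio in all 5 libraries. Ncapg2 against Ncapg was at 102% and 103% with CAPH2, 114% and 113% with SMC2 and 139% with SMC1.

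Genes that overlap a member or start within 1 kb of it were compared by RPKM. Lmf2, which starts 63 bases from Ncaph2 in the opposite direction, had log2 changes of -0.26 and -0.23 with CAPH2 and -0.33 and -0.23 with SMC2. Sco2, a copper chaperone of cytochrome c oxidase, and Tymp, thymidine phosphorylase, overlap the 3′ end of Ncaph2 on the other strand. Sco2 had log2 changes of -0.46 and -0.49 with CAPH2, 0.16 with SMC1 and -0.10 and -0.15 with SMC2, and Tymp had -0.34 and -0.56 with CAPH2, 0.14 with SMC1 and -0.11 and -0.14 with SMC2. Their spans overlap that of Ncaph2 by 1192 and 898 bases, introns included. The library kit does not mark strand, so reads from any exon sequence shared there cannot be told apart from those of Ncaph2. Ift80, a subunit of intraflagellar transport that starts 402 bases from Smc4 in the opposite direction, was above GFP like Smc4 (0.50 and 0.50 with CAPH2, 0.47 and 0.36 with SMC2). Vps26b, 81 bases from Ncapd3, had log2 changes of -0.11 to 0.051, and Mrpl51, 614 bases from Ncapd2, of -0.22 to 0.069. D430020J02Rik, 241 bases from Ncapg2, had changes of 0.23 to 0.58 on 192 counts in GFP, and Lcorl, which overlaps Ncapg by 103 bases, of 0.069 to 0.56 on 117 counts. The microRNA genes Mir15b and Mir16-2 within Smc4 had 0 counts in all 6 libraries, and Scarna10 within Ncapd2 had 3 in GFP, too few for a change.

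The wider set of SMC genes and condensin partners was described in the same tests. Of 11 genes of cohesin and its loading, 7 rose with CAPH2 (Smc1a, Stag1, Stag2, Pds5a, Pds5b, Wapl and Nipbl) and 6 with SMC2 (the same without Smc1a), and none fell. Over all rows 4.89% and 4.57% rose. The median of the 11 was 0.40 and 0.43 (log2), beside 0.012 and 0.0089 for all rows. Nipbl, the cohesin loader, rose by 0.49 ± 0.0925 with CAPH2 and by 0.57 ± 0.0927 with SMC2. With the GC offset none of the 10 that could be fitted passed, and the medians were 0.21 and 0.18. Smc1a, the target of the SMC1 hairpin, was at 39.9% of GFP in the SMC1 library (37.2 to 42.8). Of the 6 genes of the SMC5/6 complex, Smc5 and Smc6 rose with CAPH2 (4.89% of all rows did) and Smc6 with SMC2 (4.57%), and none of the 5 with a GC value passed with the offset.

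Among 16 condensin partners and regulators, 3 rose with CAPH2 (Akap8, Top2a and Top2b), 2 of them with SMC2 (all but Top2b), and none fell. The shares of all rows were 4.89% and 4.57% higher and 3.22% and 2.58% lower. Top2a, topoisomerase II of mitotic chromosomes, rose by 0.36 ± 0.0728 with CAPH2 and by 0.28 ± 0.0725 with SMC2 (log2 ± SE). The kinases that act on condensin in mitosis (Aurka, Aurkb, Plk1 and Cdk1) did not pass in either test. None of the 16 passed with the GC offset. Of 12 mitotic genes, Ccnb2 fell with CAPH2, with a log2 change of -0.35 ± 0.0787 (adjusted p = 0.0319, and 0.055 with the GC offset), and no other passed. The summed RPKM of the 12 was 756 to 821 across the 6 libraries. In SMC2 against CAPH2 no gene of these 4 lists passed. Of 9 ESC markers, Fgf4 fell with CAPH2 (-0.62) and SMC2 (-0.46), beside 3.22% and 2.58% of all rows, and none rose. Of the 8 fibroblast markers that could be tested, Col1a2 (0.69) and Fbn1 (0.84) rose with CAPH2 and Fbn1 (0.87) with SMC2, and none fell. Thy1 (-0.50 and -0.37) and Pdgfrb (-0.019 and -0.10) had values below 0 with CAPH2 and SMC2 and did not pass. With the GC offset Fgf4 still passed with CAPH2 (-0.64, adjusted p = 0.0418) and Fbn1 with SMC2 (0.92, 0.0477), whereas Col1a2 and Fbn1 with CAPH2 (0.0525 each) and Fgf4 with SMC2 (0.0614) did not. The part of these markers in the condensin values was not tested.

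The non-member rows with the lowest p against GFP were Sec23a (1.00), Thoc2 (0.99), Lpar4 (1.51), Phip (0.79) and Atrx (0.70) with CAPH2, and Sec23a (1.02), Zdbf2 (0.91), Thoc2 (0.89), Phip (0.83) and Rif1 (0.75) with SMC2, all higher on the log2 scale. None of the 8 condensin genes rose as much in either test. Of 12269 genes compared over the 6 libraries, those whose log2 RPKM followed Ncaph2 most closely were Tmem141 (Pearson r = 0.988), 1500011B03Rik (0.968) and Sall4 (0.967). Their range was narrower than that of Ncaph2: Tmem141 was at an RPKM of 6.43 with GFP and 5.04 and 5.34 with CAPH2. The genes closest to Smc2 were Stk36 (0.986), Igfbp3 (0.970) and Mgat5b (0.967). Igfbp3 had an RPKM of 29.2 with GFP, 35.6 and 33.4 with CAPH2, and 28.2 and 27.3 with SMC2. With 6 points and this many genes compared, high values of r are found for any pattern, and they are given as a description.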

How the data were processed

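Polyadenylated RNA of 6 libraries was sequenced (TruSeq version 2, unstranded). Alignment by the authors used Bowtie and mm9, discarding reads with more than 2 alignments, and counted exonic reads per RefSeq transcript. The deposited counts are raw, a shared exon counting for every isoform, and the deposited RPKM values are scaled by the authors to exon length and library reads. Bowtie's version is not given in the sources used here.

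Of the RefSeq rows, 25353 were named by accession, 673 by position among GENCODE genes of mm9, and 47 not at all. Counts were tested with edgeR 4.0.16 (R 4.3.3; TMM, quasi-likelihood, Benjamini-Hochberg over all rows) on rows with at least 10 counts in 2 libraries. The paper states no such test. RPKM changes carry exact binomial intervals (scipy 1.17.1) for 95% counting error. Alternatives were DESeq2 1.42.0, other scalings and filters, leaving out hairpins, a replicate block and, added after seeing the data, GC and length corrections. GC content is that of the longest GENCODE protein-coding transcript with the row's symbol, and the GC fit subtracts each library's median deviation in 20 bins of it. In simulated counts for SMC2 against CAPH2 (18122 rows), edgeR recovered 99 of 100 2-fold and 89 of 100 1.5-fold changes with 7 false calls among 195. For CAPH2 against GFP (18332 rows) it recovered 97 and 71 with 2 false calls among 170. For SMC2 against GFP (18330 rows) it recovered 95 and 65 with 2 among 162. The simulation gave all rows the same dispersion, changed only well-counted rows and held no shift with GC content or length. Its rates therefore do not carry over to the real comparisons with GFP, or to genes whose hairpins differ widely, such as Ncaph2.

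The genes named were all 8 members, listed partner, cohesin, SMC5/6 and mitotic genes past the threshold, up to 5 called non-members with the lowest p in each test, neighbours within 1 kb, and the 3 genes most correlated with Ncaph2 and with Smc2 (mean of at least 50 counts). 1 listed partner gene is not reported here. Members and lists were chosen with earlier results of these data known. R1 and R2 are the hairpin numbers of the sample titles. P-values rest on the spread between hairpins, each sequenced once from cultures the labels do not describe as separate. edgeR draws the spread of each gene toward that of all rows, so its SE is not the spread of 1 gene alone. For Ncaph2 the SE was 0.177 by edgeR and 0.357 by DESeq2 in SMC2 against CAPH2. In CAPH2 against GFP it was 0.203 and 0.438.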

Additional observations from a re-analysis of the deposited data

How the results depend on the processing

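Both the number of calls and the changes of the members against GFP depended on the setting. In SMC2 against CAPH2 edgeR called 1 row, and 3 with DESeq2 size factors, with all 6 libraries in the fit, over the rows with a GC value and with the GC offset, 5 with the DESeq2 Wald test, 8 with no filter on low counts, and 1 to 404 when a hairpin was left out. In CAPH2 against GFP it called 1498, against 940 by DESeq2, 2584 with no filter, 96 with the GC offset and 1406 to 4343 without a hairpin. In SMC2 against GFP it called 1321, against 2279 with no filter, 81 with the GC offset and 360 to 3849 without a hairpin. Leaving out a hairpin leaves 1 library in its group, which is assumed to vary like the other pair.

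Smc2 in SMC2 against CAPH2 and against GFP, and Ncaph2 in CAPH2 against GFP, kept their direction and their side of the threshold in every edgeR and DESeq2 setting. In SMC2 against CAPH2, Ncaph2 passed at 1.54 with DESeq2 size factors, no filter and all 6 libraries. It also passed over the rows with a GC value and with the GC offset. It did not pass in the main fit (adjusted p = 0.0511), by the DESeq2 Wald test (0.0511) or with 1 row per gene (0.0508). Nor did Ncaph2 pass without SMC2 R1 or SMC2 R2 (1.55 and 1.53), where 1 SMC2 library is left. Without a CAPH2 hairpin the spread of Ncaph2 between the 2 is gone, so those fits cannot decide the call. With all hairpins kept and no replicate block, its adjusted p ran from 9.51e-08 (no filter) to 0.0511. Its range without a hairpin was 1.21 to 1.94. Members near 0 in that comparison changed sign without a CAPH2 hairpin: Ncaph ranged from -0.01 to 0.022, Ncapd2 from -0.025 to 0.14, Ncapd3 from -0.082 to 0.04 and Ncapg2 from -0.0024 to 0.083. Ncapg in SMC2 against GFP turned to -0.054 with the GC offset. The cause of these changes was not tested.

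With ERCC scaling, 5 of the 40 member changes did not move. Smc2 with SMC2 turned to 0.14 and 0.091, and Ncaph2 to 0.29 with SMC1 and to 0.31 and 0.26 with SMC2. Ncaph and Ncapd2 turned to values above 0 in all libraries but CAPH2 R2. Changes against GFP also followed exon length (Spearman correlation over rows 0.207 to 0.404). Centred on rows of like length, 28 of the 40 member changes moved, and with SMC1 Ncapd3 turned to -0.20, Smc2 went from 0.65 to 0.37 and Ncapd2 from -0.25 to -0.53. Centred on rows of like GC content, 36 of the 40 moved, and Ncapg and Ncapd3 with SMC1 turned to -0.044 and -0.016. At 1.5-fold the members counted were 0 lower with SMC1 (17.3% of rows were) and 1 higher with CAPH2 (1.52%). With SMC2 they were 0 higher (1.44%) and 0 lower (2.16%). Same-numbered hairpins shared only a number (correlation of their deviations 0.0368 over 18463 rows). A replicate block gave 15 calls in SMC2 against CAPH2, 3795 in CAPH2 against GFP and 3477 in SMC2 against GFP. It put Ncaph2 at 1.57 in the first, where Ncaph2 passed (adjusted p = 4.17e-08). Such a block takes part of the spread between hairpins out of the error and leaves 1 residual degree of freedom. Its calls are therefore not on a par with those of the main fit. The block also brought Ncapd2 with CAPH2 (-0.23, adjusted p = 0.0367) and Ncapg with SMC2 (0.25, 0.0361) past the threshold against GFP, and changed no other member's call. The lowest count behind a member in GFP was 1446 (Ncapg2), and the depth of the single GFP library bounds every change against it.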
